A study of Arabidopsis thaliana with 2 samples.

Results

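The genes described here are the rows of the Arabidopsis thaliana expression table whose description names an ethylene-responsive transcription factor, an ethylene response factor (ERF) or an ERF domain. The rule found 67 genes among 18615, all through the first of these phrases. They were compared between the shoots of wild-type seedlings (Col-0) and of seedlings of the bts-1 mutant, which carries an allele of BTS (BRUTUS), the gene of an E3 ubiquitin ligase that limits responses to iron deficiency. Both genotypes grew on Murashige and Skoog medium of reduced strength with no sucrose; neither plant age nor pooling of plants is stated in the sources used here. With 1 library for each genotype there is no estimate of error and no test, and all differences reported are between these 2 libraries.

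ERF proteins are plant transcription factors that bind DNA through a single AP2 domain. The family is sorted by sequence into groups I to X. Groups I to IV, the DREB branch, are known for binding the dehydration-responsive element (DRE) of cold and drought genes, and groups V to X, the ERF branch, for binding the GCC box of defence genes. In ethylene signalling the hormone inactivates its receptors and the kinase CTR1, EIN2 then stabilises the factors EIN3 and EIL1, and these switch on certain ERF genes. Many other ERF genes answer wounding, touch, cold, pathogens or low oxygen instead, often within minutes.

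The label held for 56 of the 67 genes. The other 11 carry the phrase in their description but lie outside groups I to X: 10 belong to the AP2 branch, whose proteins have a pair of AP2 domains and act mainly in development, and 1 (AT4G13040) stands alone in the family as the soloist. Of the 56, 22 belonged to the DREB branch (groups I to III) and 34 to the ERF branch. The listed values are log2(FPKM + 1), where FPKM is a fragment count scaled for transcript length and library size. Subtracting Col-0 from bts-1 gives the log2 ratio, and a gene was called at least 2-fold higher or lower when that ratio reached 1 in size. All 67 genes reached an FPKM of 1 in at least 1 library, the filter used for the 18510 genes tested. Such ratios understate differences of genes with low values.

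In the whole table, BTS (AT3G18290) was listed at 10.84 in Col-0 and 9.57 in bts-1. On chromosome 3, but not on the others, the listed level depended on the exon length of the next gene along the chromosome (slope -0.57, SE 0.03, against -0.02 to 0.04), so levels of the 8 members with an AT3G identifier are uncertain; rescaled by exon lengths, BTS stood at 6.63 and 5.38. Depth is unknown because no counts were given. Of the 10 shoot markers all were present, with FPKM values that summed to 16946 in Col-0 and 16153 in bts-1, and 5 of 12 root markers were present, with sums of 1111 and 1207, most of it from PYK10 (10.06 and 10.19). Of 5 seed markers, EM6 was present, at 1.24 and 0.55. Fewer cells of a type and less RNA per cell cannot be told apart in such bulk tissue.

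A set of ERF genes was lower in bts-1. Of the 67 genes, 11 (16.4%) were at least 2-fold lower, against 3.63% of all tested genes, and 1 (1.49%) was at least 2-fold higher, against 1.92%. All 11 lower genes were among the 56 ERF genes proper, where they made up 19.6%. The median log2 ratio was -0.07 over the 67 genes and 0.04 over all tested genes, with 38 negative and 29 positive ratios. The lower genes lay mainly in group IX (5 of 9) and group II (3 of 9), and the others were 1 gene each of groups I, III and X. With 1 library a genotype the spread between replicates is not known, so none of these shares has a test.

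A pair of the lower genes shared a stretch of promoter sequence, which the choice of members did not use; the pairs shown were picked after the values had been seen. The windows printed here are the 300 bases before the gene start in RefSeq's annotation of the TAIR10.1 assembly, printed 5′ to 3′ on the strand of the gene, and none of them overlaps an annotated exon. When the windows of the 67 genes were compared in 2211 pairs, the longest identical stretch was 26 bases, between ERF1A (chr4:9758903-9759202, plus strand) and ERF2 (chr5:19172957-19173256, minus strand). Both are group IX genes and both were at least 2-fold lower in bts-1. The capitals mark that stretch, which begins 88 bases before the start of ERF1A and 41 bases before that of ERF2 and contains a G box (CACGTG).
ERF1A: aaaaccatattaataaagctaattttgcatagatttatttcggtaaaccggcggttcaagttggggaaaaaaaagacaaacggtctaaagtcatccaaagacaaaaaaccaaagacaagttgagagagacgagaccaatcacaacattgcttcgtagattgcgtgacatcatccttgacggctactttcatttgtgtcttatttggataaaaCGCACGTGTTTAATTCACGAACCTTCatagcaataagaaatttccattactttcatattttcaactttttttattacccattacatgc
ERF2: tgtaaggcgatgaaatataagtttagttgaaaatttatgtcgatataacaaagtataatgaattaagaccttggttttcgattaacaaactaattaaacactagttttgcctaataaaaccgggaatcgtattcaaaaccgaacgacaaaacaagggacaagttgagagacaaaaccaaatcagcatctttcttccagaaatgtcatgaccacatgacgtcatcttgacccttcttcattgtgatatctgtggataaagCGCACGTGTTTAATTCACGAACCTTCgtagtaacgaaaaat

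Among 27443 promoters of protein-coding genes, searched on both strands, these 2 held the 26-base stretch. The stretch had been taken from these 2, so their matches were fixed in advance.

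A pair of group IX genes that were not lower, ERF15 and ORA59, shared a different arrangement. A stretch of 15 bases, a GCC box (GCCGCC) and a G box follow each other in both, and the GCC box begins 36 bases before the G box in each. Other pairs of windows also shared 15 bases or more, among them ABR1 and ERF112 (15 bases) and ABR1 and CRF8 (24 bases, an AT repeat). In 27443 promoters read on the gene's own strand, this spacing of the 2 boxes occurred in 2, those of ERF15 and ORA59. The spacing had been read from these 2 windows, so their matches were fixed in advance. The parts shown run from 256 to 181 bases before the start (ERF15 at chr2:13307753-13307828, minus strand; ORA59 at chr1:1882651-1882726, plus strand), with the shared stretch and both boxes in capitals.
ERF15: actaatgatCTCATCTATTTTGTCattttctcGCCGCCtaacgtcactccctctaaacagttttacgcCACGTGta
ORA59: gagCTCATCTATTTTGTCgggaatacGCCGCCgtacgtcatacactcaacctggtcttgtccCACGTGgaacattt

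Group IX holds the factors best known for binding the GCC box of defence genes, and its median log2 ratio was -1.45. ERF105 (AT5G51190), linked to cold responses, was listed at 5.10 in Col-0 and 1.68 in bts-1, a log2 ratio of -3.42, lower than in all but 0.04% of tested genes. ERF104 (AT5G61600), a target of the immune kinase MPK6, stood at 5.30 and 3.20, a ratio of -2.10. ERF1A (AT4G17500), an activator of defence genes listed as ERF-1 in the table, stood at 5.57 and 3.86, a ratio of -1.71. These 3 were among the more abundant members in Col-0, each above 77% of all genes.

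ERF2 (AT5G47220), a further activator, was listed at 4.16 in Col-0 and 2.71 in bts-1, a ratio of -1.45. ERF5 (AT5G47230), which acts in immunity and in growth restraint under osmotic stress, stood at 2.81 and 1.35, a ratio of -1.46. The other 4 genes of group IX did not reach 2-fold. ERF107 (AT5G61590), also called DEWAX, a repressor of wax synthesis, had the highest Col-0 level of all 67 genes, 7.19, and was listed at 6.89 in bts-1. ERF106 (AT5G07580) stood at 4.65 and 4.46. ORA59 (AT1G06160), which joins ethylene and jasmonate signals at defensin genes, stood at 1.56 and 1.97, and ERF15 (AT2G31230) at 1.82 and 1.88.

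Neighbouring genes within the family did not always share a ratio. ERF104 and ERF107 are next to each other on chromosome 5 with no protein-coding gene between them, and their ratios were -2.10 and -0.30. ERF2 and ERF5, with 1 protein-coding gene between them, had nearly equal ratios. ERF1A lies beside ERF6 (AT4G17490), a further MPK6 target that the description rule did not reach because its description is worded differently; ERF6 was listed at 3.82 in Col-0 and 1.71 in bts-1, a ratio of -2.11. The repressor genes ERF11 (AT1G28370) and ERF12 (AT1G28360), also adjacent, had ratios of -0.66 and 0.08.

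**Figure D1:**
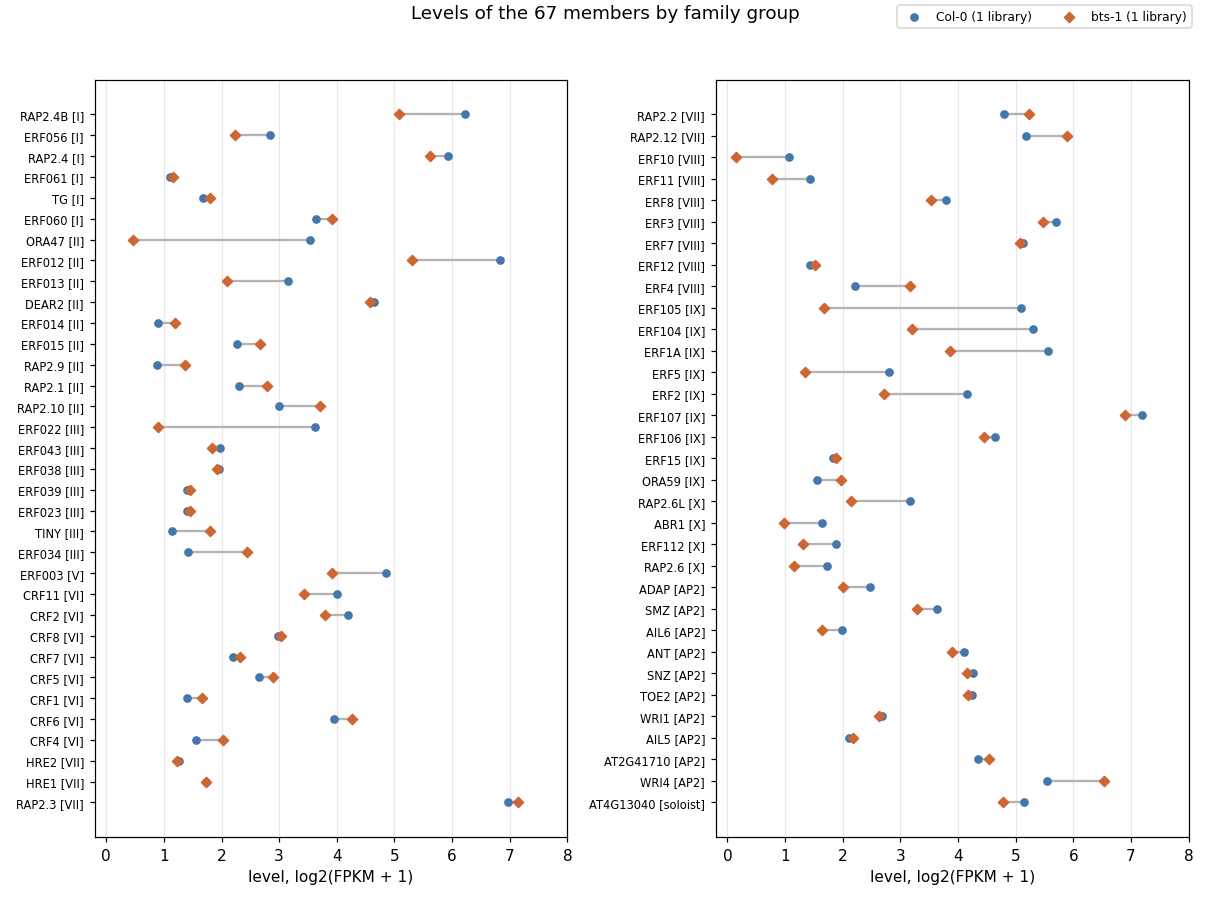
Levels of the 67 genes as log2(FPKM + 1) on the horizontal axis, with the family group in brackets; circles are the Col-0 library, diamonds the bts-1 library and grey lines join both values of a gene. The longest lines run to the left for ERF105 (5.10 to 1.68), ORA47 (3.53 to 0.46) and ERF022 (3.62 to 0.90), and ERF034 (1.41 to 2.44) has the longest line to the right.

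The DREB branch was split. In group II, 3 of 9 genes were at least 2-fold lower, against 3.63% of all tested genes, yet the median log2 ratio of the group was 0.30. The median was the ratio of ERF014 (AT1G44830), listed at low levels of 0.90 in Col-0 and 1.19 in bts-1. With a minimum FPKM of 5 in either library, the group median was -0.07. ORA47 (AT1G74930), an activator of jasmonate synthesis genes, was listed at 3.53 in Col-0 and 0.46 in bts-1, a ratio of -3.08. ERF012 (AT1G21910), also known as DREB26, had the third highest Col-0 level of all members, 6.83, and stood at 5.30 in bts-1, a ratio of -1.53. ERF013 (AT1G77640) stood at 3.15 and 2.09, a ratio of -1.06. Of the remaining 6 genes, 5 had positive ratios, up to 0.72 for RAP2.10 (AT4G36900; 2.99 and 3.71), and DEAR2 (AT5G67190), which carries a repressor motif, stood at 4.64 and 4.57.

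Group III, with 7 genes, held 1 gene past 2-fold in each direction. ERF022 (AT1G33760) was listed at 3.62 in Col-0 and 0.90 in bts-1, a ratio of -2.72. ERF034 (AT2G44940) stood at 1.41 and 2.44, a ratio of 1.03, the one member at least 2-fold higher. Both libraries listed it at a low level, and it dropped below 2-fold when ratios were centred on the nuclear median. TINY (AT5G25810), a DREB factor of stress and brassinosteroid responses, had a ratio of 0.66, and the other 4 genes had ratios from -0.14 to 0.06.

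Group I, with 6 genes, is known from RAP2.4 (AT1G78080), a factor of drought and light responses, which stood at 5.93 in Col-0 and 5.62 in bts-1. Its relative RAP2.4B (AT1G22190) was listed at 6.23 and 5.08, a ratio of -1.15 and the only one past 2-fold in the group. The highest ratio was 0.27, for ERF060 (AT4G39780; 3.64 and 3.91).

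In group X, all 4 ratios were negative, with a median of -0.61. RAP2.6L (AT5G13330), which acts in tissue reunion after wounding, was listed at 3.16 in Col-0 and 2.14 in bts-1, a ratio of -1.02, just past 2-fold. ABR1 (AT5G64750), a repressor of abscisic acid responses, stood at 1.64 and 0.99, and RAP2.6 (AT1G43160) at 1.72 and 1.16. Just short of 2-fold was ERF003 (AT5G25190), the one gene of group V, at 4.85 and 3.91, a ratio of -0.94.

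**Figure D2:**
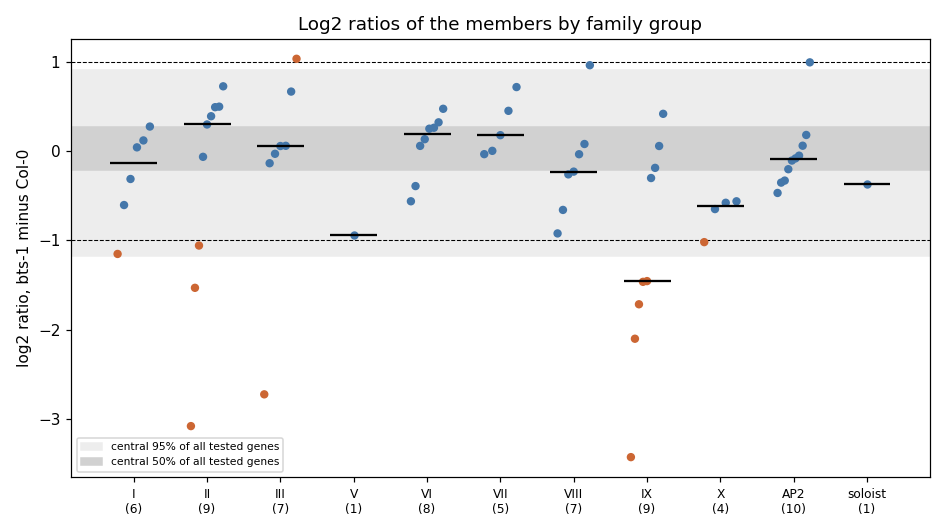
Log2 ratio (bts-1 minus Col-0) of each member by family group, with the number of genes in parentheses; bars are medians, dashed lines mark 2-fold, orange points lie past it, and grey bands hold the central 50% and 95% of all tested genes. The 5 lower genes of group IX (-1.45 to -3.42) and ORA47, ERF012 and ERF022 of groups II and III lie below the 95% band, which starts at -1.18.

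In groups VI, VII and VIII, tied to cytokinin, oxygen sensing and repression, 0 genes were called at least 2-fold lower, against 3.63% of all tested genes, and groups of this size give few calls at that share. The 5 genes of group VII encode factors that are degraded in the presence of oxygen and so act in low oxygen, and their median log2 ratio was 0.18. RAP2.12 (AT1G53910) stood at 5.17 in Col-0 and 5.89 in bts-1, a ratio of 0.71, although 399 of its bases are identical to the nearby locus AT1G53887, so reads from that stretch cannot be assigned with certainty. RAP2.2 (AT3G14230) had a ratio of 0.45. RAP2.3 (AT3G16770), listed as EBP, had the highest bts-1 level of the members, 7.15, against 6.97 in Col-0 (6.92 and 6.75 when rescaled for chromosome 3). The hypoxia-induced genes HRE1 (AT1G72360; 1.73 in both libraries) and HRE2 (AT2G47520; 1.27 and 1.23) were low and level.

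The 8 cytokinin response factors of group VI ranged from -0.56 for CRF11 (AT3G25890) to 0.47 for CRF4 (AT4G27950; 1.55 and 2.03), with a median of 0.19. The highest in mean level of them was CRF6 (AT3G61630), at 3.95 in Col-0 and 4.27 in bts-1; with chromosome 3 rescaled it stood at 3.35 and 3.66, and CRF2 (AT4G23750) at 4.19 and 3.80. None of these genes approached 2-fold.

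Group VIII holds repressors that carry an EAR motif, a short stretch that recruits co-repressors. ERF4 (AT3G15210), a repressor in ethylene and jasmonate responses, was listed at 2.21 in Col-0 and 3.17 in bts-1, a ratio of 0.96; rescaled for chromosome 3 its ratio was 1.05, past 2-fold. ERF10 (AT1G03800) went the other way, at 1.07 in Col-0 and at 0.15, the lowest listed value, in bts-1. There it counts as not detected and no fold is given. With a pseudocount of 0.1, 2 of the 7 genes of group VIII were at least 2-fold lower, against 5.39% of all tested genes. ERF3 (AT1G50640), the most abundant of the group, stood at 5.70 and 5.47. The median of the 7 genes was -0.23.

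Among the 10 AP2 genes, none was at least 2-fold lower, against 3.63% of all tested genes, and 10 genes give few calls at that share. Of the 10 genes, 7 had negative ratios. WRI4 (AT1G79700), which promotes fatty acid supply for cuticular wax, was the most abundant of them, at 5.54 in Col-0 and 6.53 in bts-1, a ratio of 0.99, just short of 2-fold. The floral repressors SMZ (AT3G54990), SNZ (AT2G39250) and TOE2 (AT5G60120) had ratios of -0.35, -0.11 and -0.08, and the organ growth regulator ANT (AT4G37750) of -0.20. ADAP (AT1G16060) had the lowest ratio of this branch, -0.47. The soloist gene AT4G13040 stood at 5.15 and 4.77.

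**Figure D3:**
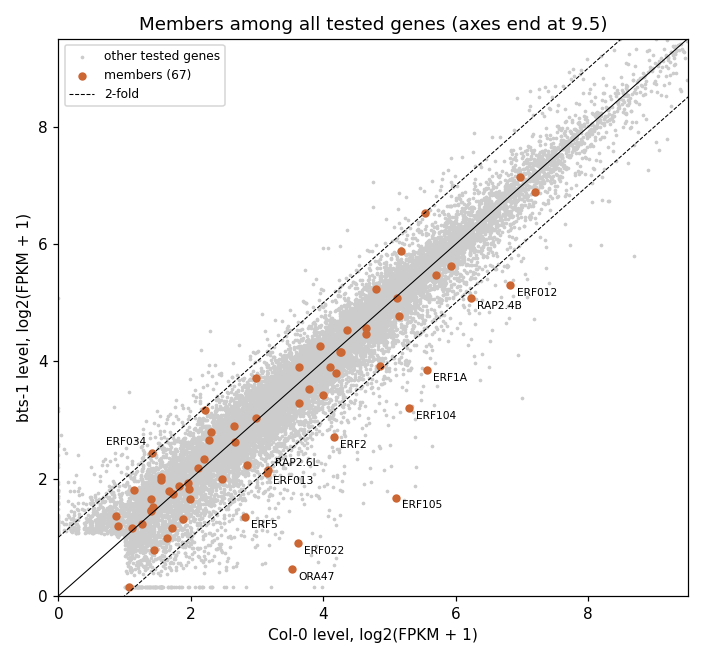
Level in Col-0 (horizontal) against level in bts-1 (vertical), both as log2(FPKM + 1), for tested genes (grey; those with the highest levels lie beyond the axes) and the 67 members (orange); the solid line marks equal levels and the dashed lines 2-fold. The 11 named genes below the lower dashed line span Col-0 levels from 2.81 to 6.83, and ERF034 lies just above the upper one.

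The order of levels within the family differed between the libraries. In Col-0 the 5 highest genes were ERF107, RAP2.3, ERF012, RAP2.4B and RAP2.4. In bts-1 they were RAP2.3, ERF107, WRI4, RAP2.12 and RAP2.4. ERF1A moved from rank 7 to rank 21 and ERF104 from rank 9 to rank 27. Without replicates it cannot be said which neighbours in this order differ beyond their spread. The 11 lower genes had Col-0 levels from 2.81 to 6.83. With 1 added to FPKM and a lowest bts-1 value of 0.15, members with the lowest Col-0 levels could hardly be called lower. With a pseudocount of 0.1, 14 members were at least 2-fold lower, against 5.39% of all tested genes. The range, and the split by level that follows, are thus partly set by the scale. Of the 23 members with a Col-0 level of at least 4, 6 were at least 2-fold lower (26.1%, against 3.51% of all genes at that level), and 5 of the 44 below it (11.4%, against 3.72%).

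Gene structure differed between lower and other members. Of the 46 members with 1 coding exon, 10 (21.7%) were at least 2-fold lower, and of the 21 with several coding exons 1 (4.76%), RAP2.6L. The same split over all genes gave 6.82% of 3140 genes with 1 coding exon and 2.77% of 14693 with several. As all 10 AP2 genes and the soloist have several coding exons, the split is partly one of family branch; within the 56 ERF genes proper, 1 of 10 genes with several coding exons was lower.

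Short motifs were counted in the same 300-base windows, on both strands. The W box core (TTGAC), bound by WRKY factors, was in 7 of the 11 lower members and 27 of the other 56, against 50.4% of all promoters. The G box was in 2 of 11 and 8 of 56, against 7.09% of all promoters, and the DRE core (CCGAC) in 1 of 11 and 13 of 56, against 13.9%. The 2 lower members with a G box were ERF1A and ERF2, and in both it lay in the 26-base stretch that they share. The GCC box was in 0 of 11 and 5 of 56, against 2.26%, in the windows of ERF11, ABR1, ERF15, CRF6 and ORA59. CGCGTT, the core of the rapid stress response element, was in 0 of 11 and 3 of 56, against 3.08%. No pair of these motifs contains one another, and a match describes letters only. ERF022 held 2 W box cores, as did ERF4 and CRF8, which were not lower. Those of ERF022 are shown in capitals in its window (chr1:12237247-12237546, plus strand).
ERF022: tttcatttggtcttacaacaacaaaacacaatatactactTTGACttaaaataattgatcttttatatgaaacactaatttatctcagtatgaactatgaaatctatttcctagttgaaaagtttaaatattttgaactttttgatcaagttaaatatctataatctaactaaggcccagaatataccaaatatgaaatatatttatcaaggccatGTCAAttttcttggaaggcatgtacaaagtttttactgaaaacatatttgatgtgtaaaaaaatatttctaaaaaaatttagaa

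Some members share bases with genes on the other strand. The exons of 12 of the 67 genes overlap those of another gene, in each case on the opposite strand; the libraries were made with a strand-preserving kit, but whether reads were counted by strand is not given. ERF105, the member with the lowest ratio, is overlapped along its whole exon length by AT5G51180, which stood at 3.98 in Col-0 and 4.24 in bts-1. Unless reads were counted by strand, no part of ERF105 has reads that can be assigned to it with certainty. ORA47 overlaps AT1G74929, at 1.23 and 1.49, along a small part of its exon length. The overlapping partners of ERF105 and ORA47 thus had small positive ratios. With these 12 genes left out, 9 of 55 members were at least 2-fold lower.

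Of the ethylene receptor and signalling genes, 3 of 13 were at least 2-fold higher in bts-1 and 0 at least 2-fold lower. Over all tested genes these shares were 1.92% and 3.63%. All 13 receptor and signalling genes had positive log2 ratios, from 0.02 for the receptor gene ETR1 (AT1G66340; 3.82 and 3.84) to 1.87 for EBF2, with a median of 0.65 against 0.04 over all tested genes. EBF2 (AT5G25350), an F-box protein that marks EIN3 for breakdown and is itself induced by ethylene, stood at 4.36 in Col-0 and 6.23 in bts-1. The receptor gene ERS1 (AT2G40940) stood at 3.97 and 5.24, and EBF1 (AT2G25490) at 4.66 and 5.90. EIN3 (AT3G20770), the highest listed of them and on chromosome 3, was listed at 6.35 and 6.66.

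Ethylene synthesis genes went both ways, with 2 of 12 at least 2-fold lower, 1 at least 2-fold higher and a median of 0.21. The shares over all tested genes were 3.63% lower and 1.92% higher. ACS6 (AT4G11280), a stress-induced synthase of the ethylene precursor, stood at 4.85 in Col-0 and 2.56 in bts-1, and ACS11 (AT4G08040) at 3.63 and 2.53. ACS4 (AT2G22810) was higher, at 1.10 and 2.25.

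Genes known as targets of ERF factors were counted in 3 lists. Over all tested genes, 3.63% were at least 2-fold lower and 1.92% at least 2-fold higher, and lists of 7 genes give few calls at such shares. Of 7 defence genes with GCC boxes, 1 was at least 2-fold lower, the defensin gene PDF1.2C (AT5G44430), at 3.90 in Col-0 and 2.78 in bts-1, and near-identical defensin copies can share reads. HEL (AT3G04720), the most abundant, stood at 7.48 and 7.33. Of 7 cold and drought genes with the DRE, KIN2 (AT5G15970; 5.33 and 3.88) and COR15A (AT2G42540; 2.95 and 1.71) were at least 2-fold lower, though both have close paralogs that can share reads, and COR47 (AT1G20440), the most abundant, stood at 7.71 and 7.49. The median of this list was -0.57, with 6 of 7 ratios negative. Of 7 hypoxia genes, targets of group VII, none passed 2-fold, with a median of 0.15; SUS1 (AT5G20830), the most abundant, stood at 3.18 and 2.76. The difference between these lists and the ERF genes was not tested.

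Of 10 genes that answer touch and wounding within minutes, 8 were at least 2-fold lower, against 3.63% of all tested genes. All 10 ratios were negative, with a median of -1.77. The list was chosen with earlier results of these data known, so its count is not independent of them. WRKY33 (AT2G38470), a regulator of camalexin synthesis, stood at 6.37 in Col-0 and 3.68 in bts-1, a ratio of -2.69. ZAT10 (AT1G27730), a zinc finger repressor, had a ratio of -2.22, SZF1 (AT3G55980) of -2.19 and ZAT12 (AT5G59820) of -1.96. TCH4 (AT5G57560), a touch-induced cell wall enzyme and the most abundant of the list, was listed at 9.06 and 7.60. How the plants were handled before harvest is not stated, and the part of handling in the result was not tested.

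**Figure D4:**
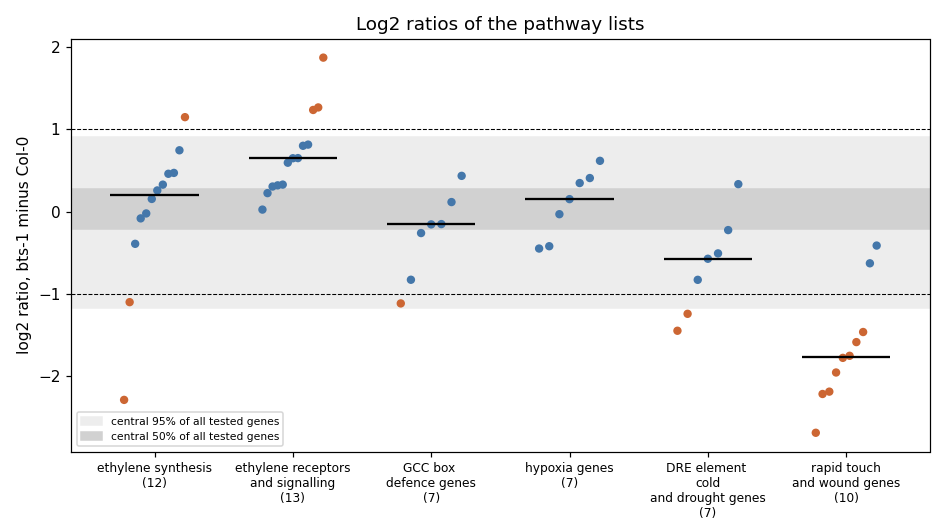
Log2 ratio (bts-1 minus Col-0) of each gene in the pathway lists, with the number of genes in parentheses; bars are medians, dashed lines mark 2-fold, orange points lie past it, and grey bands hold the central 50% and 95% of all tested genes. All 13 receptor and signalling genes lie above 0 (median 0.65) and all 10 touch and wound genes below 0 (median -1.77).

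Further family genes lay outside the description rule. Of 6 such genes in the table from the published groups, 5 passed the filter on low values and 5 had negative ratios. Besides ERF6, ERF020 (AT1G71520) was listed at 2.50 in Col-0 and at the lowest bts-1 value of 0.15. DEAR3 (AT2G23340), a relative of DEAR2, had a ratio of -0.99, and DREB2A (AT5G05410), an activator of drought and heat genes, stood at 1.38 and 0.73. ERF037 (AT1G77200) had a ratio of 0.06, and CBF2 (AT4G25470), a cold regulator under the filter, stood at 0.97 and 0.63.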

How the data were processed

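Total RNA of seedling shoots was sequenced from 1 Col-0 and 1 bts-1 library. Per the submitters' processing notes, HTSeq 0.9.1, TopHat2 2.1.0, Bowtie, cutadapt 1.12 and CASAVA 1.8.2 were used with TAIR10; their order is not given. The authors' deposited table, titled normalized FPKM, was read as log2(FPKM + 1), since their lowest Col-0 value is 0 and their highest far too small for linear FPKM; no label records the log. The sorted columns are equal within 0.001 at 99.1% of ranks, as after quantile normalization, which removes overall differences between libraries. Depth is unknown. 2 rows without symbol and description were left out (4.33% of summed FPKM in Col-0, 4.34% in bts-1).

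The log2 ratio is the difference of the deposited log2 columns. Genes that reached an FPKM of 1 in 1 library or both were kept as tested. Shares and medians are descriptions; no test was possible. The members and lists were chosen with earlier results of these data known. Genes were named by rule: members past 2-fold, the most abundant, each group's extremes, and in each list up to 4 of those past 2-fold and the most abundant (1 gene and 1 promoter pair are not reported here); others, among them the promoter pairs, ERF106, ERF15, ERF11, ERF12, RAP2.6, ABR1, ETR1 and TINY, were named after their values were seen. Family groups follow the published phylogeny. Exons, gene order and promoters came from RefSeq's annotation of TAIR10.1, matched by gene identifier, so no coordinate was taken between builds. Near-identical stretches (95% identity, at least 100 bases) were sought with megablast. The ratio and counting steps were tested on simulated data. Python 3.11.15, pandas 2.3.3 and numpy 2.4.6 were used.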

Additional observations from a re-analysis of the deposited data

How the results depend on the processing

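The count of members at least 2-fold lower, 11, was 14 with a pseudocount of 0.1 (5.39% of all tested genes under that setting), 8 with 5 (1.37%), 16 at 1.5-fold (9.32%) and 5 at 3-fold (1.15%). It stayed at 11 with no filter, with a minimum FPKM of 5, after centring, with chromosome 3 rescaled or left out, without genes at the lowest values and, chosen after seeing the data, without AP2 genes and the soloist; without members whose exons overlap another gene, likewise chosen, it was 9. The count at least 2-fold higher, 1, was 3 with a pseudocount of 0.1 (3.97% of all tested genes), 0 with 5 (0.546%), 0 with a minimum FPKM of 5, 0 after centring on the nuclear median, 2 with chromosome 3 rescaled (1.84%), 6 at 1.5-fold, near the 7.53% of all tested genes, and 0 at 3-fold (0.270%). The median log2 ratio of the members ranged from -0.23 to -0.04 over these settings, and the mean was -0.30. At 3-fold, 3 genes of group IX and 1 of group II were lower. Of the ethylene receptor and signalling genes, 8 were higher at 1.5-fold and 1 at 3-fold. Of 236 values of the 31 members named by rule under the alternatives, 228 stayed within 1.5-fold. The other 8 moved further, all under another pseudocount, and 0 reversed direction. The remaining members named in the text were not part of this count. ERF10, at the lowest value in bts-1, had a log2 ratio of -2.52 with a pseudocount of 0.1 and -0.26 with 5, against -0.92 as listed, so its ratio is set by the pseudocount. ORA47 had a log2 ratio of -4.50 with a pseudocount of 0.1 and -1.53 with 5, and ERF022 of -3.56 and -1.47. ERF105 had -2.41 and ERF5 -0.75 with 5. The group IX median was -0.75 with 5. No paired analysis was possible because each genotype has 1 library, and for the same reason no replicate could be left out. Depth limits what low values can show, and it is unknown here.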
